A study of Mus musculus with 18 samples.

Results

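The 6 genes described here, Olfr111, Olfr112, Olfr113, Olfr114, Olfr115 and Olfr116, form a run of neighbouring olfactory receptor genes on mouse chromosome 17. They were picked out of the 55487 genes of the deposited count table by symbol and position, with results of these data known. They were chosen by their nuclear levels in untreated cells, the excess of nuclear over cytoplasmic reads and the lower nuclear levels after treatment. Those values are therefore given as a description, with no test.

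RNA came from BV2 cells, an established mouse microglial line immortalised with a retrovirus carrying raf and myc oncogenes. Cells were left untreated (0 h) or received 10 µM oxyhemoglobin, the oxygen-binding blood pigment, for 12 or 24 h, and nuclear and cytoplasmic fractions were prepared. The 6 groups had 3 libraries each, 18 in all, and the labels name no genetic change in any group. Untreated cells were sampled only at 0 h, so the effects of oxyhemoglobin and of time in culture cannot be told apart. The count table has a single column per group, the mean of its 3 libraries, so no spread between libraries and no test across them can be given, and every interval below covers counting error only. Summed over 3 libraries, the groups held 14652566 to 22379595 reads.

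Olfactory receptors are G protein-coupled receptors of the cell membrane that detect odorants. An olfactory sensory neuron expresses a single receptor gene from the large family and silences the others through repressive chromatin. The receptor on the cilium acts through the G protein subunit encoded by Gnal, adenylyl cyclase 3 and a cyclic nucleotide-gated channel. A typical receptor gene has its whole coding sequence in a single exon, with noncoding exons before it. In the mouse a large group of these genes lies beside class I genes of the major histocompatibility complex on chromosome 17, where this run is found. Receptor RNA has also been detected outside the nose in many tissues.

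In the GENCODE M21 annotation of GRCm38 the run spanned 119 kb, chr17:37508030-37627199. Olfr111 (ENSMUSG00000090675, chr17:37508030-37532449) was the only member on the plus strand. The other 5 were on the minus strand, in the order Olfr112 (ENSMUSG00000051611, chr17:37561668-37569451), Olfr113 (ENSMUSG00000092292, chr17:37573877-37577663), Olfr114 (ENSMUSG00000062629, chr17:37589233-37592743), Olfr115 (ENSMUSG00000092413, chr17:37608940-37627109) and Olfr116 (ENSMUSG00000061336, chr17:37620577-37627199). The widest gap, 29.2 kb, separated Olfr111 from Olfr112, and the narrowest, 4.43 kb, separated Olfr112 from Olfr113. The Olfr115 and Olfr116 gene models overlapped by 6533 bases on the same strand. Olfr115 shared 16.5% of its exonic bases with Olfr116 or with the pseudogene Gm18213, and Olfr116 shared 6.79% with Olfr115, so the split of reads between those genes is uncertain.

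The coding sequences divided the run in the same way as the strands did. Across the 15 pairs, the 5 minus-strand members were 85.8% to 90.8% identical to each other, while Olfr111 was 58.2% to 59.1% identical to them. Runs of 50 bases shared exactly with another gene made up 4.12% of the Olfr112 transcripts, 12.3% for Olfr113, 6.72% for Olfr114, 13.2% for Olfr115 and 8.42% for Olfr116. For Olfr111 the share was 20.9%, all of it with the neighbouring Olfr110. Reads from such stretches can be assigned to either copy or dropped, which adds uncertainty to each member's level.

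RefSeq start windows on GRCm38.p6, covering 250 bases before to 50 after each annotated start, were found for 4 of the 6 members. The part before the coding exon is printed 5′ to 3′ because the 3 minus-strand members with a window resembled each other there more than they resembled Olfr111. The positions are chr17:37575448-37575671 (minus strand) for Olfr113, chr17:37590382-37590601 (minus strand) for Olfr114, chr17:37610782-37611029 (minus strand) for Olfr115 and chr17:37529707-37529924 (plus strand) for Olfr111. These windows lie inside the longer GENCODE gene models, just before the coding exon. The printed parts hold no exonic base and are intronic in those models, which start farther upstream. They may not be where transcription starts in these cells, so motif matches in the windows are not read as promoter elements. Capitals mark a run of 22 bases found in Olfr113, Olfr114 and Olfr115 and not in Olfr111.
Olfr113: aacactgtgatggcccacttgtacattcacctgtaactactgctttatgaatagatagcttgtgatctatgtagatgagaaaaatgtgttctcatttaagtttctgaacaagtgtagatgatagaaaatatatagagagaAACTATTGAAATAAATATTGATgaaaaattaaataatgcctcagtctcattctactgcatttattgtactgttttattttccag
Olfr114: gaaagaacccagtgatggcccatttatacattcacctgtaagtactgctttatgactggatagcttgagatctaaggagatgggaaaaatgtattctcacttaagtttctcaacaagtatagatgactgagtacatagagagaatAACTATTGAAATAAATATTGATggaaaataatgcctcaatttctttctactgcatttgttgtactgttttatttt
Olfr115: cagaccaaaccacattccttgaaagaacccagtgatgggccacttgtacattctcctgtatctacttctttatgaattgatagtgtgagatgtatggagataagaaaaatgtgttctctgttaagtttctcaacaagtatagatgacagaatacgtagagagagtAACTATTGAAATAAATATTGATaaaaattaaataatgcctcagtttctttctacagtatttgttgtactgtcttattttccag
Olfr111: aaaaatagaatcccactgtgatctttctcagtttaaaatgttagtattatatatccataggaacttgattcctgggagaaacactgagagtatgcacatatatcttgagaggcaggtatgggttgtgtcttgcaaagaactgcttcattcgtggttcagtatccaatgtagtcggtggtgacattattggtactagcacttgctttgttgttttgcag

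Identity over the whole printed sequences, capitals included, was 81.8% between Olfr113 and Olfr114, 77.9% between Olfr113 and Olfr115 and 77.4% between Olfr114 and Olfr115, against 50.5% to 54.8% between Olfr111 and each of them. A set of 6 motifs was searched on both strands of the full windows. TATAAA, the letters of the TATA box, was in 1 of 4 windows, against 13.6% of the 32851 windows of all genes. That match was in Olfr114 at base 23 of the window, far before the annotated start. CCAAT was in 1 of 4 (Olfr111), against 37.4%. TAATTA, the core read by homeodomain factors such as Lhx2 and Emx2, was in 0 of 4 (5.29% of all windows). The palindromic motif of Ebf factors was also in 0 of 4 (0.904%). The AP-1 motif TGANTCA (7.81%) and GAGGAAGT, the motif of the macrophage factor PU.1 (3.20%), were likewise in 0 of 4.

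The members were well above the detection limit in nuclei of untreated cells and low at both later times. Their summed mean count per library in the nucleus was 1982 at 0 h, 270 at 12 h and 226.7 at 24 h. In the cytoplasm it was 62.3, 16.0 and 13.0 at the same times. The high group was thus the untreated nuclear group, and every cytoplasmic group lay below every nuclear group for this sum.

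**Figure D1:**
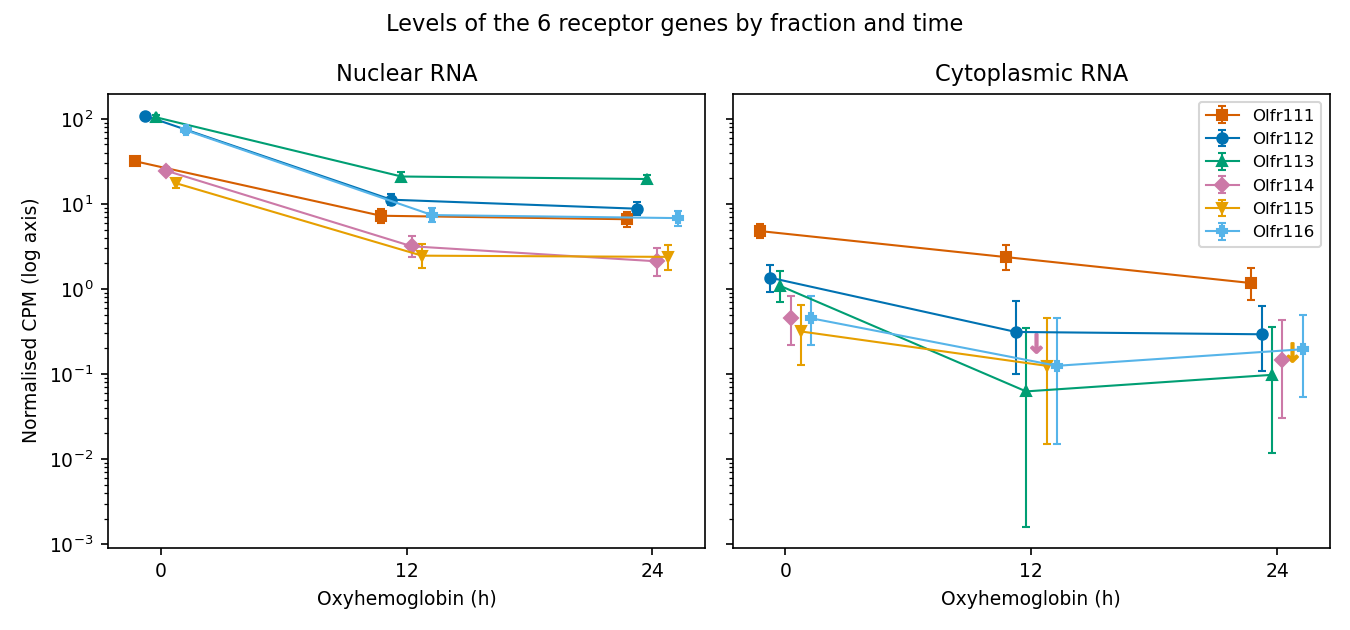
Normalised counts per 1000000 reads (CPM, log axis) of the 6 receptor genes against hours of oxyhemoglobin, nuclear RNA on the left and cytoplasmic RNA on the right, scaled separately. Points are the mean of 3 libraries, bars are 95% counting intervals, arrows point down from the upper bound of a group with 0 reads, and lines are broken there. All 6 genes are highest at 0 h in the nucleus, from 17.5 CPM for Olfr115 to 108.5 CPM for Olfr112.

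Olfr112 had the most nuclear reads, with mean counts of 597 at 0 h, 57.7 at 12 h and 43.0 at 24 h. Olfr113 followed with 576, 108 and 96.0, and Olfr116 with 402, 38.0 and 33.3. These 3 genes were high at 0 h, and Olfr113 kept the highest count of the 6 at the later times. Olfr111 had mean counts of 175 at 0 h, 37.3 at 12 h and 32.3 at 24 h. For Olfr114 the mean counts were 136, 16.3 and 10.3, and for Olfr115 they were 96.3, 12.7 and 11.7. In each of the 6 genes the 12 h and 24 h values lay close together and well below the 0 h value.

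Per kilobase of exon the order at 0 h was different. Olfr113 led with 62.6 normalised CPM per kb (95% counting interval 59.7 to 65.7), followed by Olfr112 with 22.8 (21.8 to 23.9). Olfr114 had 16.9 (15.3 to 18.6) and Olfr116 had 16.3 (15.4 to 17.3), 2 neighbours in this order whose intervals overlapped. Olfr111 had 12.0 CPM per kb (11.0 to 13.1) and Olfr115 the lowest level, 6.74 (5.98 to 7.56). Olfr113 remained first at 24 h with 11.7 CPM per kb (10.4 to 13.2), and Olfr115 last with 0.918 (0.639 to 1.28).

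After 12 h of oxyhemoglobin, 6 of 6 members were called lower in the nucleus, beside 6.64% of the 17295 genes compared. A call needed a difference of at least 2-fold and a 95% counting interval that excluded 0. The contrast chose the members, so nothing is read from the count. Olfr116 had 7.39 normalised CPM at 12 h and 73.1 at 0 h, a log2 ratio of -3.30 (-3.59 to -3.03). For Olfr112 the values were 11.2 CPM after 12 h, against 108.5 CPM in untreated cells, a log2 ratio of -3.27 (-3.51 to -3.05). Only 19 of the genes compared had a lower ratio than Olfr116. Olfr114 (-2.96, -3.41 to -2.53) and Olfr115 (-2.83, -3.36 to -2.34) came next. Olfr113 (-2.32, -2.49 to -2.14) and Olfr111 (-2.13, -2.44 to -1.83) were the least reduced. The median log2 ratio of the 6 was -2.89, while that of all genes compared was 0.00, and their summed reads were 6.86-fold lower at 12 h than at 0 h.

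At 24 h, 6 of 6 members were again called lower than at 0 h, beside 5.75% of the genes compared, in a contrast that shares its 0 h group with the 12 h one. The summed reads were 7.77-fold lower, and the median log2 ratio was -3.15, against -0.02 for all genes. Olfr112 had 8.79 CPM after 24 h, against 108.5 CPM in untreated cells (-3.63 on the log2 scale, -3.90 to -3.37). Olfr114 had 2.11 CPM after 24 h, against 24.7 CPM in untreated cells (-3.54, -4.12 to -3.02). Olfr116 stood at -3.42 (-3.73 to -3.13), Olfr115 at -2.88 (-3.43 to -2.37), Olfr113 at -2.41 (-2.60 to -2.23) and Olfr111 at -2.26 (-2.59 to -1.95). Between 24 h and 12 h, 0 of 6 members were called lower and 0 higher, beside 1.19% and 1.83% of all genes. The log2 ratios of 24 h over 12 h ranged from -0.59 for Olfr114 to -0.05 for Olfr115.

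**Figure D2:**
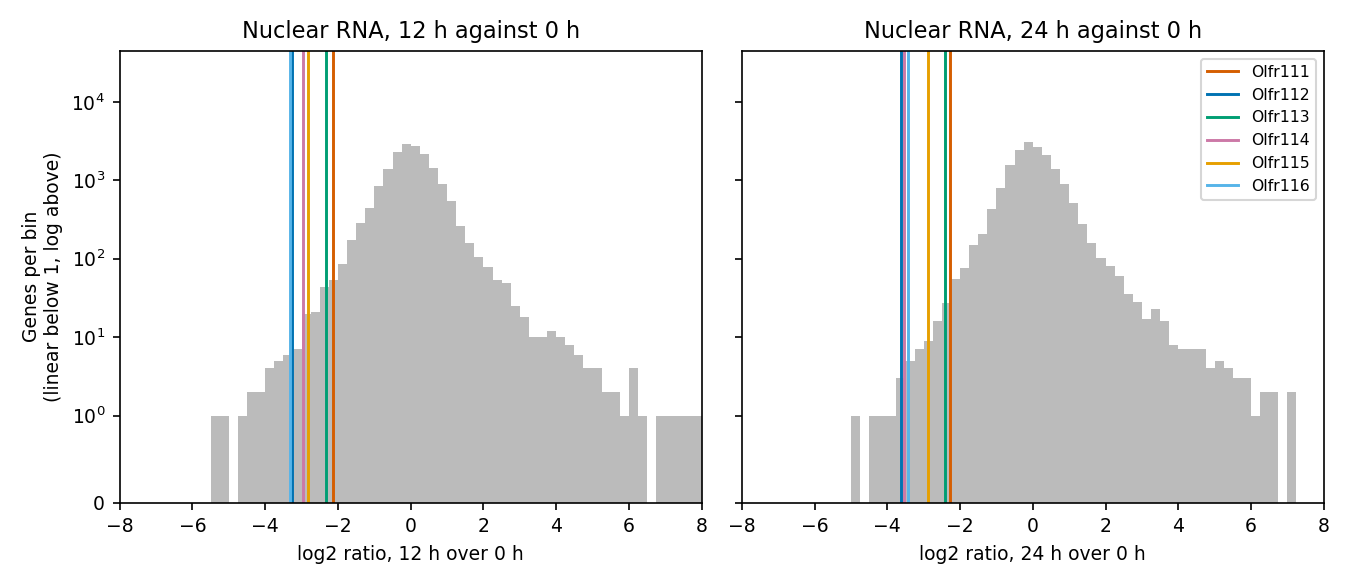
Distribution of the nuclear log2 ratio over the 17295 genes compared, 12 h over 0 h on the left and 24 h over 0 h on the right, with 1 coloured line per member (genes per bin, log axis above 1). Ratios beyond the axis are counted in the outer bins. The 6 members lie between -3.30 and -2.13 at 12 h and between -3.63 and -2.26 at 24 h, in the lower tail.

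Among the members the nuclear log2 ratios differed in size, which is a description of values that chose them, with intervals that leave out variation between libraries. Olfr111 was less reduced than Olfr116 by 1.18 (0.77 to 1.58) at 12 h and by 1.16 (0.73 to 1.59) at 24 h. For Olfr113 over Olfr116 the difference was 0.99 (0.66 to 1.31) at 12 h and 1.01 (0.66 to 1.35) at 24 h. Olfr111 and Olfr113, which differ in strand and are 59.1% identical in coding sequence, had ratios that differed by 0.19 (-0.15 to 0.53) at 12 h and by 0.15 (-0.21 to 0.51) at 24 h. In these bulk fractions, fewer cells with receptor RNA and less RNA per cell cannot be told apart.

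The change of the cytoplasmic levels with time was not used to choose the members, although the cytoplasmic level in untreated cells entered the choice through the excess of nuclear reads, so these ratios are not independent of it. Only Olfr111 had enough reads to be compared there, through its 0 h and 12 h groups, with mean counts of 35.3 at 0 h, 12.7 at 12 h and 8 at 24 h. Its level was 2.37 normalised CPM at 12 h and 4.80 at 0 h, a log2 ratio of -1.02 (-1.59 to -0.47), and it was called lower, as were 8.99% of the 11751 genes compared. On the log2(TPM + 1) scale that ratio was -0.97, short of 2-fold. At 24 h its level was 1.17 CPM, a log2 ratio of -2.03 (-2.74 to -1.38) to 0 h, and it was again called lower, as were 6.71% of genes. On the log2(TPM + 1) scale that ratio was -1.24. Between 24 h and 12 h the ratio was -1.02 (-1.82 to -0.24), a call shared by 1.89% of genes. It was lost under total-count scaling (-0.90) and on the log2(TPM + 1) scale (-0.27). The cytoplasmic TPM of Olfr111 was 2.27, 0.674 and 0.384 at 0, 12 and 24 h, low enough for the added 1 to shrink these ratios.

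The other 5 members had few cytoplasmic reads. Their mean counts at 0 h ranged from 2.33 for Olfr115 to 10.0 for Olfr112, and none exceeded 2 at 12 or 24 h. Olfr114 had 0 reads at 12 h and Olfr115 had 0 at 24 h, with upper bounds of the counting interval at 0.230 and 0.180 normalised CPM. Added together, the 5 had 10 reads over 3 libraries at 12 h and 81 at 0 h, a log2 ratio of -2.55 (-3.67 to -1.60). At 24 h they had 15 reads, a log2 ratio of -2.32 (-3.22 to -1.52) to 0 h. The summed signal of the 5 in the cytoplasmic fraction was thus lower at both later times, although no member of the 5 could be compared by itself. Their summed nuclear reads were 5422, 698 and 583 at 0, 12 and 24 h. Whether some of the few cytoplasmic reads were nuclear RNA carried over into that fraction was not tested.

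In untreated cells 6 of 6 members were called higher in the nucleus than in the cytoplasm, beside 47.5% of the 17902 genes compared, and this excess had helped to choose them. On a scale common to both fractions, Olfr116 had 48.9 normalised CPM in the nucleus and 0.708 in the cytoplasm, a log2 ratio of 6.11 (5.23 to 7.17). Olfr113 stood at 5.37 (4.79 to 6.01), Olfr112 at 5.10 (4.58 to 5.67), Olfr115 at 4.56 (3.50 to 5.89) and Olfr114 at 4.54 (3.65 to 5.61). Olfr111 stood apart, with 21.3 CPM in the nucleus and 7.50 in the cytoplasm, a log2 ratio of 1.5 (1.20 to 1.82). The median over all genes was 0.78. Total-count scaling raised every ratio at 0 h by 1.41, so these ratios are relative to the scaling and to that median.

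**Figure D3:**
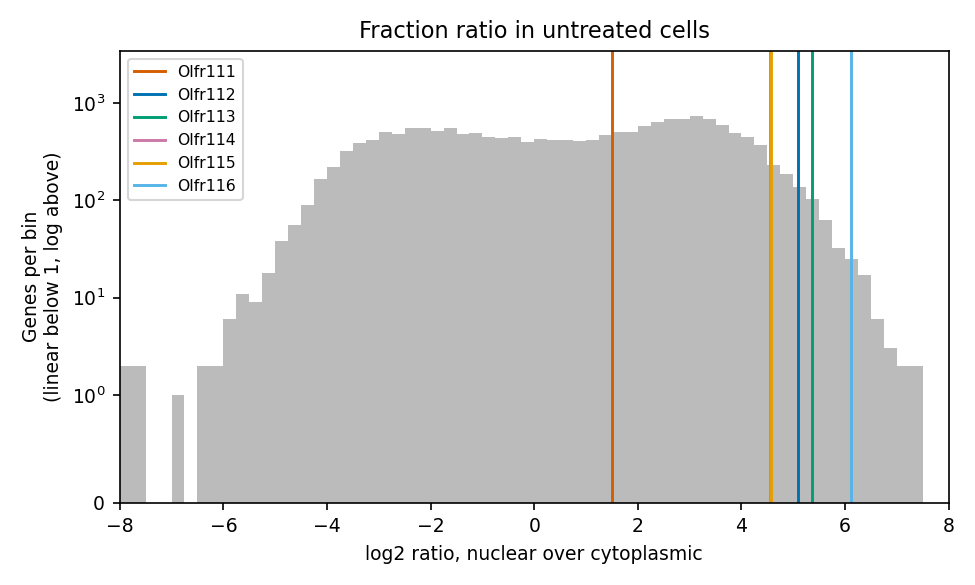
Distribution of the log2 ratio of nuclear over cytoplasmic level in untreated cells for the 17902 genes compared, with 1 coloured line per member (genes per bin, log axis above 1, ratios beyond the axis in the outer bins). Olfr111 lies at 1.5, and the other 5 members lie between 4.54 and 6.11, with the Olfr114 line hidden under that of Olfr115.

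Because of this difference, Olfr111 made up 8.81%, 13.8% and 14.3% of the members' nuclear reads at 0, 12 and 24 h, but 56.7%, 79.2% and 61.5% of their cytoplasmic reads. At 12 h, 5 of 6 members were called higher in the nucleus, beside 46.4% of genes, and at 24 h 6 of 6, beside 45.7%. The 5 members other than Olfr111 had too few reads for comparison in every cytoplasmic group. They entered the fraction comparisons only through nuclear groups, where they are high, so nothing is read from these counts. Olfr111 was the exception at 12 h, with a log2 ratio of 0.52 (-0.02 to 1.09), below the all-gene median of 0.81. Under total-count scaling it was called higher there, at 1.62. Olfr113 had the highest ratios at the later times, 7.30 (4.81 to 12.6) at 12 h on 1 cytoplasmic read and 6.5 (4.63 to 9.55) at 24 h on 2. Where the cytoplasm had 0 reads, the nuclear level was at least 7.94-fold higher for Olfr114 at 12 h and at least 7.33-fold higher for Olfr115 at 24 h. On the log2(TPM + 1) scale the 12 h ratio of Olfr115 was 0.91. At 24 h 4 members were not called on that scale, Olfr111 (0.88), Olfr112 (0.99), Olfr114 (0.76) and Olfr115 (0.82). The added 1 shrinks ratios of TPM values as low as these. Nuclear and cytoplasmic TPM at 24 h were 1.55 and 0.384 for Olfr111, 1.09 and 0.0507 for Olfr112, 0.828 and 0.0803 for Olfr114, and 0.760 and 0 for Olfr115.

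The nuclear to cytoplasmic ratio of the summed members was lower after treatment, by 1.15 on the log2 scale at 12 h (0.68 to 1.62) and by 0.73 (0.22 to 1.25) at 24 h. At 12 h the size of that shift depended on Olfr111. Without Olfr111, the log2 ratio of the other 5 was 5.26 (4.95 to 5.60) at 0 h, 5.08 (4.2 to 6.15) at 12 h and 4.61 (3.88 to 5.46) at 24 h. For Olfr111 alone the ratio changed by -0.98 (-1.59 to -0.37) at 12 h and by -0.16 (-0.87 to 0.55) at 24 h. At 24 h the ratio changed by -1.34 (-2.63 to -0.05) for Olfr112, on 6 cytoplasmic reads, and by -2.14 (-3.84 to -0.44) for Olfr116, on 4.

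Nuclear counts were low on both sides of the run. The members were chosen by nuclear level, so this follows in part from the choice and is only a description. Directly before the run, Olfr110 (7823 bases away) had nuclear mean counts of 0.667, 0 and 0.333 at 0, 12 and 24 h. The class I gene H2-M2 (24478 bases away) had 0, 1.00 and 0.333, and Olfr109 (36440 bases away) 0, 0.667 and 1.00. Directly after it, Olfr117 (30401 bases away) had 0.667, 0 and 0, Olfr118 (39789 bases away) 2.33, 0 and 0, and Olfr119 (69365 bases away) 0 at every time. None of these 6 nearest genes reached a mean of 10. Within 190 kb before the run, the highest nuclear mean count of any of 14 genes, 12 of them olfactory receptors, was 1.00. Just beyond that distance, 190976 bases away, Olfr102 had 8, 4 and 3.67. Within 250 kb after the run, the highest nuclear mean count of 14 genes was 6, in Gm9577, and among the 10 olfactory receptor genes it was 2.33. The pseudogene Gm18213, which shares exon bases with Olfr115 inside the run, had 11.7, 0.667 and 0.

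**Figure D4:**
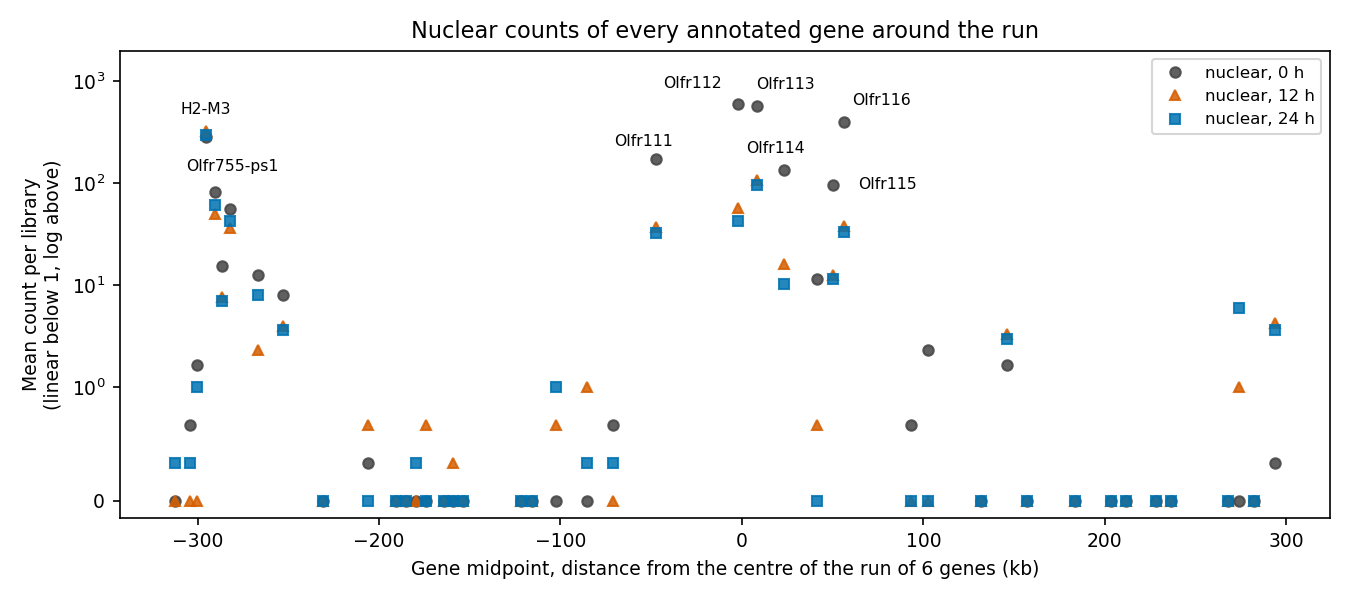
Nuclear mean count per library at 0, 12 and 24 h (linear below 1, log above) for every annotated gene within 250 kb of the run, against the distance of the gene's midpoint from the centre of the run in kb. The 6 members, chosen by nuclear level, stand out from near-silent neighbours on both sides, and the points at the far left include H2-M3 and Olfr755-ps1.

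Farther out, 38 genes lay within 250 kb of the run, 28 of them olfactory receptor genes and 15 with 0 reads in every group. A mean of 10 in untreated nuclei was reached by 6 of them. These were Gm18213, H2-M3 (283), Olfr755-ps1 (82.0), Olfr756-ps1 (56.3), Olfr99 (15.7) and Olfr101 (12.7), named after their values were seen. The last 4 and H2-M3 lie together 204 to 234 kb before the run. Olfr755-ps1 had log2 ratios of -0.62 (-0.93 to -0.33) at 12 h and -0.26 (-0.54 to 0.03) at 24 h and was called at neither time. Also called at neither time were Olfr756-ps1 (-0.53, -0.89 to -0.18, and -0.22, -0.56 to 0.12) and Olfr99 (-0.93, -1.72 to -0.18, and -0.99, -1.81 to -0.22). Olfr101 was called lower at 12 h (-2.34, -3.75 to -1.16) and not at 24 h (-0.49, -1.29 to 0.28). It had enough reads to be compared only in the 0 h group, which favoured the lower call. H2-M3 had nuclear mean counts of 283, 327 and 302 at 0, 12 and 24 h.

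Across the genome, most olfactory receptor genes had no signal. Of the other 1401, 1213 had 0 reads in every group and 18 had enough nuclear reads to be compared. At 12 h 2 of the 18 were called lower and 3 higher, beside 6.64% lower and 7.92% higher over all genes compared. Olfr130 and Olfr131, called higher, had enough reads to be compared only in the 12 h group. Olfr101, called lower, had enough only in the 0 h group. The filter favoured these calls, so nothing is read from the counts. At 24 h 2 were called lower and 2 higher, beside 5.75% and 7.88%. Their median log2 ratio was -0.39 at 12 h and -0.21 at 24 h. The summed nuclear mean counts of all the others were 686, 655 and 564 at 0, 12 and 24 h. The members held 74.3% of all nuclear olfactory receptor reads at 0 h, 29.2% at 12 h and 28.7% at 24 h, and 39.2%, 17.4% and 11.0% of the cytoplasmic ones.

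Among the 6 other receptor genes with the highest mean nuclear level, 1 moved the opposite way. Olfr129, on the same chromosome 424 kb after the run (chr17:38050857-38060079), had nuclear mean counts of 26, 173 and 107 at 0, 12 and 24 h and log2 ratios of 2.83 (2.48 to 3.19) at 12 h and 2.22 (1.85 to 2.59) at 24 h. Its neighbour Olfr130, named after its values were seen, had 2, 16 and 9. Olfr920 on chromosome 9 moved the same way as the run, with 116, 32.0 and 20.7 and log2 ratios of -1.76 (-2.10 to -1.43) and -2.32 (-2.74 to -1.93). The remaining 4, Olfr755-ps1, Olfr756-ps1, Olfr1423 and Olfr933, were called in the nucleus at neither time.

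**Figure D5:**
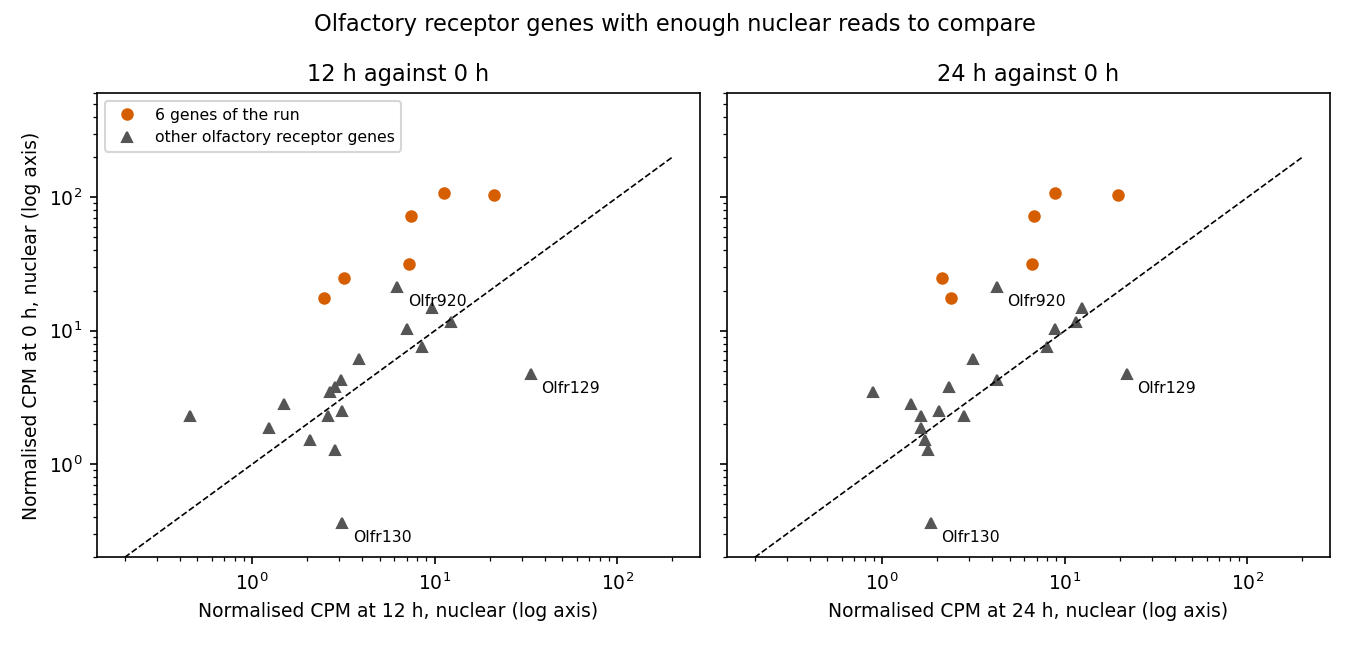
Nuclear level of the olfactory receptor genes with enough reads to compare (normalised CPM, log axes), with the level at 12 h (left) or 24 h (right) on the horizontal axis and the level at 0 h on the vertical axis. Circles are the 6 genes of the run, triangles the 18 others, and the dashed line marks equal levels; all 6 circles and Olfr920 lie above it, on the side of a lower level after oxyhemoglobin, and Olfr129 and Olfr130 lie below it, on the side of a higher level.

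The olfactory signalling pathway was partly present. Of 20 listed genes 19 were in the table and 10 could be compared, with 0 higher and 0 lower at 12 h and at 24 h and median log2 ratios of 0.07 and 0.06. Over all genes 7.92% were called higher and 6.64% lower at 12 h, so a count of 0 among 10 genes says little about the pathway. Those with the highest CPM over the 6 groups were Slc12a2, a chloride importer (nuclear mean counts of 417, 456 and 494 at 0, 12 and 24 h), the phosphodiesterase gene Pde4a (239, 250 and 281) and Gnb1, a G protein beta subunit (350, 367 and 278). In the cytoplasm Ric8b, which aids assembly of the olfactory G protein, was the 1 gene of 9 compared that was called, lower at 12 h (7.33 mean counts, against 29.3 at 0 h), a share near the 8.99% of all genes called lower there. The channel genes Cnga2, Cnga4 and Ano2 had 0 reads in all 6 groups.

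Receptor transport genes, which carry receptors to the membrane, were near the floor. None of the 6 could be compared, and Rtp1, Rtp2 and Rtp3 had 0 reads in all 6 groups. Of 14 genes linked to receptor gene choice 8 could be compared, with 0 higher and 0 lower in the nucleus at either time (medians 0.10 and 0.07). Cbx5, which encodes heterochromatin protein HP1 alpha, had the highest CPM, with nuclear mean counts of 1716, 2316 and 2725. Setdb1, a histone methyltransferase, had 613, 686 and 560, and Ldb1, a cofactor of Lhx2, had 283, 248 and 234. In the cytoplasm the histone methyltransferase gene Ehmt2 was called lower at 12 h, as were 8.99% of genes, and the transcription factor gene Atf5 higher at 24 h, as were 10.4%. Lhx2 reached at most 2 in any group, and Ebf2 and Ebf3 had 0 reads throughout.

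Markers of olfactory sensory neurons were low. Of 8 markers of olfactory sensory neurons, Omp, Adcy3 and Gnal could be compared in the nucleus and none was called at 12 or 24 h, while Cnga2 had 0 reads in every group. The summed nuclear level of the 8 was 21.1, 16.9 and 19.6 normalised CPM at 0, 12 and 24 h. Of 8 markers of other brain cells only the myelin gene Mbp could be compared, called in the nucleus at neither time, while Aqp4, Mog, Snap25 and Pdgfra had 0 reads in every group. The summed nuclear level was 6.66, 4.86 and 9.20 CPM. In the cytoplasm Mbp had mean counts of 64.3, 22.0 and 84.3 at 0, 12 and 24 h. Against 0 h it was called lower at 12 h, as were 8.99% of genes there, and not called at 24 h. Microglial and macrophage markers were present. The leukocyte gene Ptprc had nuclear mean counts of 2923, 1808 and 1579, and Spi1, which encodes PU.1, had 221, 457 and 339. Of 10 such markers 8 could be compared in the nucleus, with Spi1 and Tmem119 higher and Cx3cr1 lower at 12 h, and Cd68 and Tmem119 higher and Cx3cr1 lower at 24 h. Over all genes compared, 7.92% were called higher and 6.64% lower at 12 h, and 7.88% and 5.75% at 24 h. In the cytoplasm 5 could be compared, and Cd68 was called higher at both times. P2ry12, a marker of resting microglia, reached at most 1.67.

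The fractions were checked on 4 RNAs. The nuclear noncoding RNAs Malat1 and Neat1 had log2 ratios of nuclear over cytoplasmic level of 3.02 and 4.15 at 0 h, and Actb, the mRNA of beta-actin, had -3.79. Gapdh mRNA, usually cytosolic, stood at 1.54 at 0 h, on the nuclear side. The part of this in the members' ratios was not tested.

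Among genes with enough reads, those whose profile over the 6 groups was most like the mean profile of the members came from other chromosomes. Likeness was the root mean square difference of log2 levels centred per gene, among 11012 genes with a mean of at least 5 CPM. That limit left out most genes near the run, Gm18213 among them. The 5 closest were Gm47346 on chromosome 12 (0.291), 4931422A03Rik on chromosome 2 (0.463), Gm9968 on chromosome 16 (0.472), Gm47357 on chromosome 12 (0.537) and 4930570B17Rik on chromosome 15 (0.538). Members themselves lay between 0.303 for Olfr114 and 1.04 for Olfr111 from that mean, to which each contributes. Gm47346 had nuclear mean counts of 178, 23.7 and 24.7 at 0, 12 and 24 h, and cytoplasmic ones of 2.33, 0.333 and 1.33, high in the same single group as the members.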

How the data were processed

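RNA was sequenced from nuclear and cytoplasmic fractions of BV2 cells at 3 times, 3 libraries per group. The submitters' processing notes name HISAT2 2.2.0, featureCounts, DESeq2 and the build GRCm38. Which annotation release and strand setting went into counting is not given in the sources used here, and reads from overlapping genes on either strand therefore cannot be told apart. Libraries were made by tagmentation, per the labels' protocols.

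The deposited table of estimated counts has 6 columns, and 100% of values multiplied by 3 were whole within 0.001, so columns were taken as means over 3 libraries and multiplied back to summed reads. TPM values deposited by the authors were used only as an alternative, as log2(TPM + 1). The planned edgeR test across libraries could not be run on means. The number of libraries thus adds depth here and gives no estimate of spread, and the labels do not say whether they came from separate cultures.

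Symbols and positions came from GENCODE M21, which holds 55227 of the 55487 identifiers, and sequences from the M21 transcripts and RefSeq GRCm38.p6. Scaling was by the trimmed mean of M-values (edgeR 4.0.16, R 4.3.3; 30% and 5% trimmed), separately for nuclear and cytoplasmic groups in time comparisons and jointly for fraction ratios. A gene was compared where a group reached the CPM of 10 mean counts at median depth. Log2 ratios have exact Clopper-Pearson 95% counting intervals (normal approximation for differences of ratios), which do not cover variation between cultures and treat PCR copies as independent. A group at 0 was set to 3 reads summed over its libraries, and the ratio is then a lower bound. The calculations used Python 3.11.15, numpy 2.4.6, pandas 2.3.3, scipy 1.17.1, Biopython 1.88 and matplotlib 3.10.9, and were tested on simulated data.

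The members, gene lists and settings were chosen with earlier results of these data known. The named genes were all members, the 3 nearest annotated genes on each side, the 6 other olfactory receptor genes of highest mean nuclear level, the 5 of closest profile (pseudocount 0.5 CPM), up to 3 genes per pathway list by level, and the marker lists. Protein sequences were not used here.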

Additional observations from a re-analysis of the deposited data

How the results depend on the processing

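All 60 nuclear ratios of a member at 12 or 24 h to 0 h under 5 other settings kept their direction and their call (log2 -3.93 to -2.0). Of 195 member ratios under other settings in all comparisons, 0 reversed, 163 stayed within their counting interval and 32 moved. Both counts include the setting with no filter on low counts, which cannot change a member's ratio and so tests nothing here. The numbers of genes called in the background were less stable. On the log2(TPM + 1) scale 1655 genes were called in the nucleus at 12 h, against 2517, and 282 between 24 h and 12 h, against 522, and 163 in the cytoplasm between 24 h and 12 h, against 563. With no filter on low counts 3603 were called in the nucleus at 24 h, against 2358, and 1089 between 24 h and 12 h. In the cytoplasm that setting gave 3987 at 12 h, against 2426, 3630 at 24 h, against 2009, and 1436 between 24 h and 12 h. More genes are tested without the filter, and for the TPM scale the cause was not tested.

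The direction of background calls depended on scaling. In the nucleus 54.4% of calls at 12 h were higher, against 31.9% with total counts and 31.7% with TPM, and at 24 h 57.8%, against 27.5% and 12.8%. The all-gene median shifted by -0.22 and -0.23 at 12 h under these settings, and by -0.30 and -0.45 at 24 h. Between 24 h and 12 h the nuclear shares were 60.7%, 44.2% and 9.22%. In the cytoplasm TPM gave 15.5% at 12 h, against 56.5%, and 21.6% at 24 h, against 60.7%. Between 24 h and 12 h there, 60.6% were higher, against 73.4% with total counts. For nuclear over cytoplasmic ratios the share was 59.2% at 0 h and 61.3% at 12 h, against 78.9% and 80.3% with total counts, and at 24 h 61.3%, against 78.9%. The TPM share was 78.7% at 12 h. No paired analysis was possible because the table has 1 column per group with no replicate numbers, and leaving out each replicate was not run for the same reason. In the cytoplasm 5 of 6 members were below the limit for comparison.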
